A study of Mus musculus with 2 samples.

Results

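The 10 genes described here are the glucocorticoid receptor gene Nr3c1, the mineralocorticoid receptor gene Nr3c2, the steroid-converting enzyme gene Hsd11b1 and 7 genes known to be induced by glucocorticoids: Zbtb16, Fkbp5, Tsc22d3, Sgk1, Klf9, Mt1 and Mt2. They were taken by name from 55536 gene entries. The list was drawn up from known roles and selected on the ratio of levels between the 2 samples, which was in view, so that ratio is given as a description, with no test. The samples are hearts of female B6CASTF1/J mice aged 25 days, an F1 hybrid of a laboratory and a wild-derived strain. Each heart gave 1 library of total RNA, made from 300 ng with ERCC spike-ins, at total gene counts of 42966739 for replicate 1 and 42720824 for replicate 2. The labels name the samples biological replicates 1 and 2 of a single group, and give no treatment, hormone level or hour of collection. The labels share a donor but number the animals apart, so they were taken as 2 animals.

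Glucocorticoids such as corticosterone, the main one of the mouse, cross the cell membrane and bind a receptor held in the cytosol by chaperones. The bound receptor enters the nucleus, where it binds DNA and raises or lowers transcription of its target genes. The mineralocorticoid receptor binds the same hormone, and heart muscle cells are known for carrying both receptors with little of the enzyme that inactivates corticosterone elsewhere.

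All 10 genes were detected in both hearts, and all had a mean expected count (reads assigned to the gene by the alignment-based quantification) of at least 10. Of the 10, 8 were higher in replicate 1, among them all 7 induced genes, while both receptor genes were higher in replicate 2. By comparison, 49.8% of the 15839 genes with such a count were higher in replicate 1. Zbtb16, Fkbp5 and Mt2 passed a ratio of 2, counted where the scaled counts differed by at least that ratio and the credibility intervals deposited with the TPM values did not overlap. Over all 15839 genes 0.846% passed that ratio in either direction, 0.549% with the higher value in replicate 1 and 0.297% with the higher value in replicate 2. Among the 13555 protein-coding genes, the class of all 10 genes, 47 passed it with the higher value in replicate 1 and 46 with the higher value in replicate 2. The intervals were separate for 8 of the 10 genes, 7 of them induced genes higher in replicate 1. Over all genes they were separate for 11.5%, and for 9.8% with the higher value in replicate 1. Log2 ratios are given as replicate 1 over replicate 2. Their median was 0.52 for the 10 genes and 0.97 for the 7 induced genes, against -0.0011 over all 15839 genes. As the genes were chosen with these values in view, the counts carry no weight as evidence. In whole tissue, fewer cells of a type and less RNA per cell cannot be told apart.

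**Figure D1:**
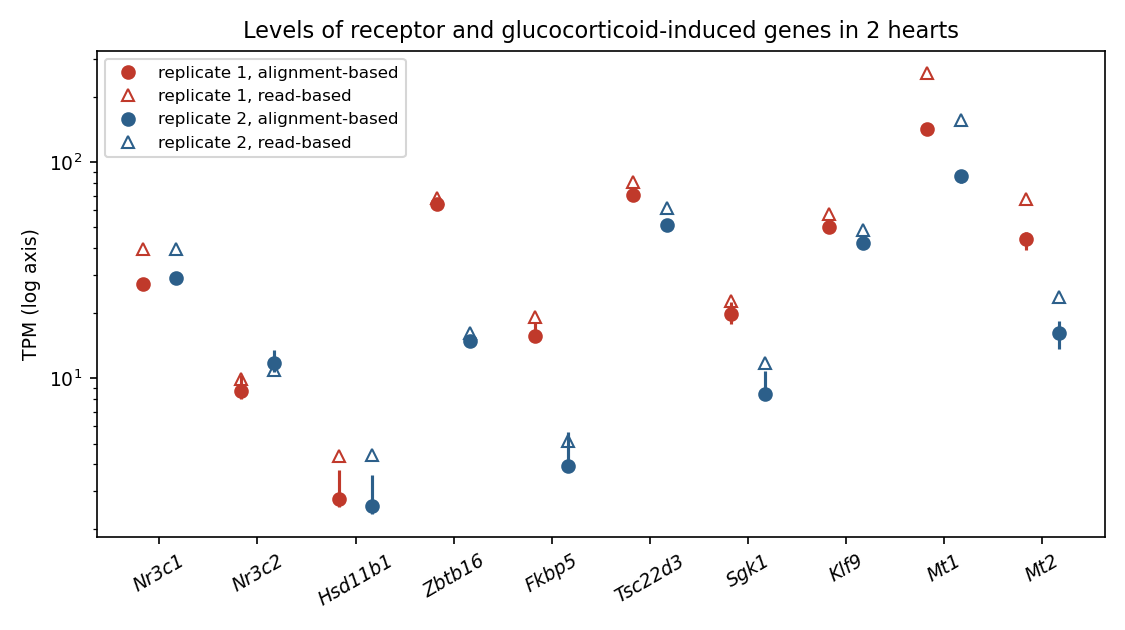
TPM (log axis) of each gene in replicate 1 (red) and replicate 2 (blue). Filled circles are alignment-based values with the deposited credibility interval as a line, and open triangles are read-based values. Zbtb16 stands at 64.4 and 14.9 TPM, while the points of Nr3c1 lie close together at 27.4 and 29.2 TPM.

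Levels are in TPM, which corrects for transcript length and so can be compared between genes. By mean level over both hearts the order ran from Mt1 through Tsc22d3, Klf9, Zbtb16, Mt2, Nr3c1, Sgk1, Nr3c2 and Fkbp5 to Hsd11b1. Mt1 and Tsc22d3 held the same places in both hearts, as did Mt2 and Hsd11b1. The ranges of the 2 hearts overlapped between Klf9 and Zbtb16, Zbtb16 and Mt2, Mt2 and Nr3c1, Sgk1 and Nr3c2, and Nr3c2 and Fkbp5, so these neighbours cannot be ordered. The mean ± SD (n = 2) was 114 ± 39.7 TPM for Mt1, 28.3 ± 1.24 TPM for Nr3c1 and 2.67 ± 0.141 TPM for Hsd11b1. Zbtb16 had place 3 in replicate 1 and place 6 in replicate 2.

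Nr3c1, which encodes the glucocorticoid receptor (identifier ENSMUSG00000024431.15, mm10 chromosome 18, positions 39410545 to 39519421), stood at 27.4 TPM in replicate 1 against 29.2 TPM in replicate 2. The credibility intervals, 26.0 to 28.7 TPM and 27.7 to 30.5 TPM, overlapped. The expected counts were 4367 and 4709, a log2 ratio of -0.15. In the read-based quantification the gene stood at 39.9 and 39.8 TPM, so neither quantification set the hearts far apart.

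Nr3c2, which encodes the mineralocorticoid receptor (ENSMUSG00000031618.13, chromosome 8, 76899442 to 77245012), was the lower of the receptor genes, at 8.72 TPM in replicate 1 against 11.7 TPM in replicate 2. Its intervals, 8.01 to 10.4 and 10.7 to 13.5 TPM, did not overlap. Its scaled counts were 1.31-fold higher in replicate 2 (95% exact interval 1.22 to 1.42, counting error only; 1151 and 1472 counts). Read-based levels were closer, at 9.93 and 10.9 TPM. Nr3c1 exceeded Nr3c2 in TPM by a factor of 3.15 in replicate 1 and 2.49 in replicate 2. Both hearts had more message of the glucocorticoid than of the mineralocorticoid receptor.

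Hsd11b1 encodes the enzyme that regenerates active glucocorticoid from its inert keto form inside the cell (ENSMUSG00000016194.14, chromosome 1, 193221634 to 193264075). It was the lowest of the 10 genes, at 2.77 TPM in replicate 1 against 2.57 TPM in replicate 2. With 123 and 112 counts, a ratio of 1.07 (0.821 to 1.39) was within counting error. Read-based levels were higher and in the opposite order, at 4.36 and 4.41 TPM, still the lowest of the 10 genes. Lamb3, a laminin gene on the opposite strand, overlaps Hsd11b1 and held 536 and 587 counts. Whether the counting used the strand is not given in the sources used here, so the reads of Hsd11b1 are uncertain. Hsd11b2, the enzyme that inactivates corticosterone, held 3 and 4 counts. It is one of 13 genes of steroid synthesis, conversion and transport, of which 5 reached a mean count of 10 and none passed a ratio of 2. H6pd, which supplies the cofactor of Hsd11b1, led them at 17.5 and 15.1 TPM.

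Zbtb16, which encodes the zinc finger transcription factor PLZF (ENSMUSG00000066687.5, chromosome 9, 48654297 to 48836222), stood at 64.4 TPM in replicate 1 (interval 61.5 to 64.6) against 14.9 TPM in replicate 2 (13.9 to 15.4). The counts behind these values were 9072 and 2093. Its log2 ratio of 2.08 was the largest of the 10 genes and had rank 4, counted from the highest in replicate 1, among 11238 genes that averaged 100 counts or more, of which 0.222% passed the ratio of 2. Read-based levels were 68.3 and 16.2 TPM, so both quantifications placed the gene far apart in the 2 hearts. No other annotated entry overlaps Zbtb16.

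Fkbp5 encodes an immunophilin that binds the receptor complex through its heat shock protein and lowers the affinity for hormone (ENSMUSG00000024222.17, chromosome 17, 28399094 to 28517527). It stood at 15.8 TPM in replicate 1 against 3.94 TPM in replicate 2, from 1476 and 415 counts. Its log2 ratio of scaled counts was 1.79, rank 6 of the 11238. The log2 ratio of TPM was larger, at 2.00, beside effective lengths of 2770 and 3020 bases. In replicate 2 the TPM lies just under the deposited interval of 3.98 to 5.64, which goes with a posterior mean of 4.80 TPM. Read-based levels of Fkbp5 were 19.3 and 5.16 TPM. Zbtb16 exceeded Fkbp5 in TPM by a factor of 4.08 in replicate 1 and 3.79 in replicate 2. By scaled counts the ratio between the hearts was 4.22 (4.02 to 4.43) for Zbtb16 and 3.46 (3.10 to 3.87) for Fkbp5. These counting intervals did not overlap. As both genes were selected on this ratio, their likeness is no separate result.

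Among those 11238 genes, the 5 nearest to Zbtb16 in log2 ratio were Hspa1a (1.80), Fkbp5 (1.79), Fam107a (1.63), Map3k6 (1.59) and Top2a (1.57). Likeness here is the distance in a single ratio between 2 samples, from 0.27 for Hspa1a to 0.51 for Top2a. Hspa1a is the inducible heat shock protein of the Hsp70 family and has a near-identical copy, Hspa1b, with which it can share reads. Top2a is a topoisomerase of dividing cells, at 1.76 and 0.48 TPM.

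Tsc22d3, which encodes the leucine zipper protein GILZ (ENSMUSG00000031431.13, chromosome X, 140539528 to 140600659), was high in both hearts, at 70.9 TPM in replicate 1 against 51.1 TPM in replicate 2. Its intervals, 67.6 to 71.9 and 48.5 to 52.2 TPM, did not overlap, and its ratio of scaled counts was 1.32 (1.26 to 1.39; 4205 and 3093 counts). Klf9, a Krüppel-like transcription factor (ENSMUSG00000033863.2, chromosome 19, 23141226 to 23168134), stood at 50.2 and 42.2 TPM with separate intervals, 48.0 to 50.5 and 40.3 to 42.6 TPM. Its ratio was the smallest of the induced genes, at 1.12 (1.09 to 1.16; 7264 and 6297 counts). Read-based levels were 81.0 and 61.6 TPM for Tsc22d3 and 57.6 and 48.9 TPM for Klf9. These abundant induced genes thus parted far less than Zbtb16 or Fkbp5: Zbtb16 exceeded Klf9 by a factor of 1.28 in replicate 1 and stood at 0.354 of it in replicate 2.

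Sgk1, a kinase gene known as a target of both receptors in ion transport (ENSMUSG00000019970.15, chromosome 10, 21882184 to 21999903), stood at 19.9 TPM in replicate 1 (17.9 to 22.7) against 8.47 TPM in replicate 2 (8.01 to 10.9), with separate intervals. Its scaled counts differed 1.96-fold (1.78 to 2.17; 1189 and 590 counts), just below the ratio of 2. The log2 ratio of TPM was 1.24, beside effective lengths of 1765 and 1996 bases. Read-based levels of Sgk1 were 22.8 and 11.7 TPM. Sgk1 would count as past the ratio of 2 by TPM, by total counts or by spike-in scaling. It is shown here as the induced gene whose start region held the exact palindrome that the receptor is known to bind as a dimer, AGAACA and TGTTCT with 3 bases between them. The sequence is the 250 bases before the RefSeq start of Sgk1-202, GRCm38 plus strand, chr10:21993640-21993889, with that palindrome in capitals.
Sgk1: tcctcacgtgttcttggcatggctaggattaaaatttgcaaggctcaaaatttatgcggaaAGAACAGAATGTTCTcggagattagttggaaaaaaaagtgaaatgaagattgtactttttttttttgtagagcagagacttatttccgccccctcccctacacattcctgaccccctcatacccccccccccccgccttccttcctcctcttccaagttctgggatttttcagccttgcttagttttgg
The palindrome begins 189 bases before that start and 965 bases before the start of Sgk1-201. It was found in 3 of 32851 RefSeq windows of this length, or 0.00913%. TGTTCT alone, on either strand, was found 3 times in this window, at 242, 189 and 180 bases before the start. The last 2 of these are the arms of the palindrome. It was in 16.1% of all windows. A match describes letters and was not tested as a binding site.

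Mt1 and Mt2 encode metallothioneins, small cysteine-rich proteins that bind zinc and copper and are induced by metals as well as by glucocorticoids. They lie side by side on chromosome 8 (Mt2, ENSMUSG00000031762.7, 94172664 to 94173568; Mt1, ENSMUSG00000031765.8, 94179082 to 94180327). Mt1 stood at 142 TPM in replicate 1 (interval 134 to 146) against 86.3 TPM in replicate 2 (80.3 to 89.3), the highest of the 10 genes in each heart. Its ratio of scaled counts was 1.56 (1.45 to 1.67; 2179 and 1364 counts). Mt2 stood at 44.2 TPM in replicate 1 (39.3 to 47.4) against 16.2 TPM in replicate 2 (13.6 to 18.4). Its ratio was larger, at 2.40 (2.04 to 2.83), on fewer counts, 515 and 209. Mt1 exceeded Mt2 by a factor of 3.22 in replicate 1 and 5.34 in replicate 2, so the pair did not keep its proportion. Read-based levels of Mt1 were higher, at 259.6 and 156.9 TPM, and those of Mt2 were 67.5 and 23.8 TPM.

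The start regions of the metallothionein genes are shown because the genes lie together and were both higher in replicate 1. Capitals mark the core of the metal response element, bound by the zinc-sensing factor MTF1 (TGCACNC or TGCGCNC on either strand), and the looser receptor palindrome GNACA and TGTNC with 3 bases between them. The windows are the 250 bases before the RefSeq start, GRCm38 plus strand, chr8:94172368-94172617 for Mt2 and chr8:94178839-94179088 for Mt1.
Mt2: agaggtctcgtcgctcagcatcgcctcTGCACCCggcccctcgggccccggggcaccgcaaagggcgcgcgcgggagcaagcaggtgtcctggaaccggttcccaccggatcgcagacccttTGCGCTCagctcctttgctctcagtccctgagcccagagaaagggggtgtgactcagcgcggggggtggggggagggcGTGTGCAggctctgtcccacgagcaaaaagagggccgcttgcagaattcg
Mt1: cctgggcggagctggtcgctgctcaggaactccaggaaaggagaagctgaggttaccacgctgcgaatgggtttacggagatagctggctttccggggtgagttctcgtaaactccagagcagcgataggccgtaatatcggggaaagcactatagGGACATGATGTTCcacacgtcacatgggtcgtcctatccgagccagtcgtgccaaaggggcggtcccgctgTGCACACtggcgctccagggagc
The Mt2 window held 3 metal elements, which begin 223, 128 and 50 bases before the start, and no receptor palindrome. The Mt1 window held 1 metal element, 23 bases before the start, and 1 looser palindrome, 94 bases before it. Bases outside the windows were not searched, so these counts depend on the start used. The minor forms Mt1-203 and Mt1-202 have annotated starts past the Mt1 window, at 94179211 and 94179241. The windows of Hsd11b1 and Nr3c2 also held 1 metal element each. A metal element was in 21.4% of the 32851 windows, 3 or more in 1.26%, and the looser palindrome in 0.387%. RefSeq windows were found for 8 of the 10 genes, 15 windows in all; Nr3c1 and Zbtb16 were not matched. Among these 15 windows the looser palindrome was in those of Mt1 and Sgk1-202 only, where the exact form in Sgk1 also meets it. The E-box CACGTG, known as a site of clock factors, was in the Fkbp5 window, 169 bases before the start, and in the Sgk1-202 window, 246 bases before it, against 6.02% of all windows.

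**Figure D2:**
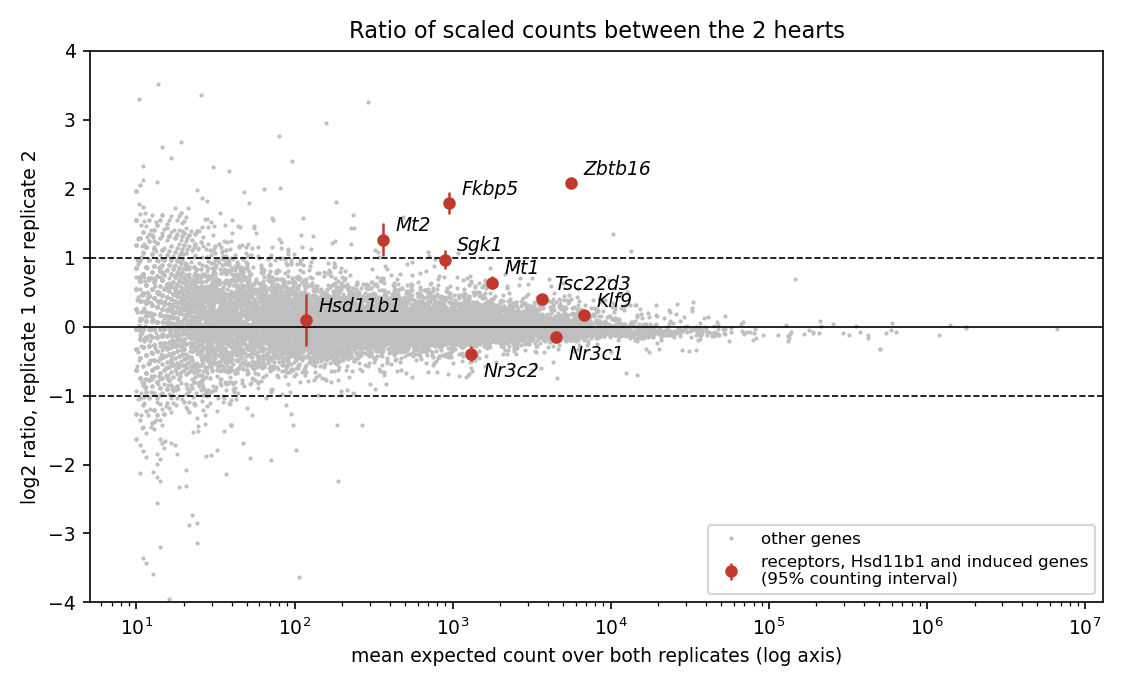
Log2 ratio of scaled counts, replicate 1 over replicate 2, against the mean expected count (log axis) of 15839 genes. Red points are the 10 genes with 95% counting intervals, grey points the other genes, dashed lines a ratio of 2; 58 genes lie beyond the axis. Zbtb16 at 2.08 and Fkbp5 at 1.79 lie far above the grey cloud at their counts, and Nr3c1 at -0.15 lies within it.

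Relative to the receptor message, every induced gene stood higher in replicate 1. As Nr3c1 differed little between the hearts, this restates the ratios on which the genes were selected and is no separate result. Zbtb16 reached 2.35 times the TPM of Nr3c1 in replicate 1 and 0.512 times in replicate 2. Fkbp5 reached 0.575 and 0.135 times, Sgk1 0.727 and 0.290 times, and Mt2 1.61 and 0.553 times. Mt1 stood at 5.19 and 2.96 times, Tsc22d3 at 2.59 and 1.75 times and Klf9 at 1.83 and 1.44 times. The 7 induced genes were also higher relative to Nr3c1 in replicate 1 by the read-based values of the same libraries, 1.71 and 0.407 times for Zbtb16. Replicate 1 had the higher induced genes, and replicate 2 the higher receptor counts. For Nr3c1 the scaled counts were 1.11-fold higher in replicate 2 (1.06 to 1.15, counting error only). The credibility intervals of Nr3c1 overlapped and its read-based levels were 39.9 and 39.8 TPM. The measures thus differ, and neither heart can be called the higher one in Nr3c1. With 2 samples no correlation between receptor and induced genes can be computed.

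The 10 genes have 67 annotated transcripts, of which 32 held at least 10% of their gene in a replicate by either quantification. The transcript named first in both hearts by both quantifications was the same for 6 genes: Nr3c2, Zbtb16, Fkbp5, Tsc22d3, Klf9 and Mt1. Zbtb16-201 held 67.7% of Zbtb16 in replicate 1 and 61.7% in replicate 2, and Zbtb16-202, a coding form that starts slightly upstream, held 32.3% and 38.3%. Both transcripts were higher in replicate 1, at 43.6 against 9.21 TPM and 20.8 against 5.71 TPM, so the difference of the gene did not rest on 1 form. Nr3c2-203 led Nr3c2 with 32.5% and 33.5%, and Nr3c2-208, annotated for nonsense-mediated decay, held 26.0% and 15.2%. Klf9-201 held 96.9% and 96.8% of Klf9, and Mt1-201 held 99.5% of Mt1 in each heart.

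Fkbp5 and Tsc22d3 kept their leading transcript beside sizeable minor forms. Fkbp5-201, the leading coding form, held 64.1% in replicate 1 and 78.6% in replicate 2. Fkbp5-203, a processed transcript without a coding frame, held 25.1% and 15.6%, or 21.2% and 7.58% by the read-based values. For Tsc22d3, the coding Tsc22d3-201 held 57.4% and 49.5%. Tsc22d3-203, a coding form from the start farthest upstream, held 18.5% and 21.3%. Tsc22d3-202, a processed transcript, held 23.4% and 28.6%. In TPM, Tsc22d3-201 stood at 40.7 and 25.3, and Tsc22d3-203 at 13.1 and 10.9. Tsc22d3-202, from the start farthest downstream, stood at 16.6 and 14.6 TPM. Of these forms Tsc22d3-201 differed most, and the difference did not follow the position of the start.

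For Nr3c1, Hsd11b1, Sgk1 and Mt2 the leading transcript was uncertain. Nr3c1-203 led Nr3c1 with 38.6% and 45.1%, but the read-based values gave it 4.81% in replicate 1, where Nr3c1-204 led with 41.0%, and 34.4% in replicate 2. Sgk1-201 held 46.3% and 54.3% of Sgk1 in the alignment-based tables and 4.81% and 0% in the read-based ones, which placed Sgk1-202 first with 56.4% and 50.9%. The palindrome shown above is nearer to the start of Sgk1-202, and the data do not settle which start was used more. Hsd11b1-205 led Hsd11b1 in replicate 1 with 78.6% and Hsd11b1-203 in replicate 2 with 58.8%. The read-based tables put Hsd11b1-202 first in both hearts, a form at 0% in the alignment-based ones. Mt2-202 held 54.5% of Mt2 in replicate 1 and 33.6% in replicate 2, and 0% in each by the read-based values, which gave all of Mt2 to Mt2-201. The transcript shares of Mt2 thus rest on the quantification.

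**Figure D3:**
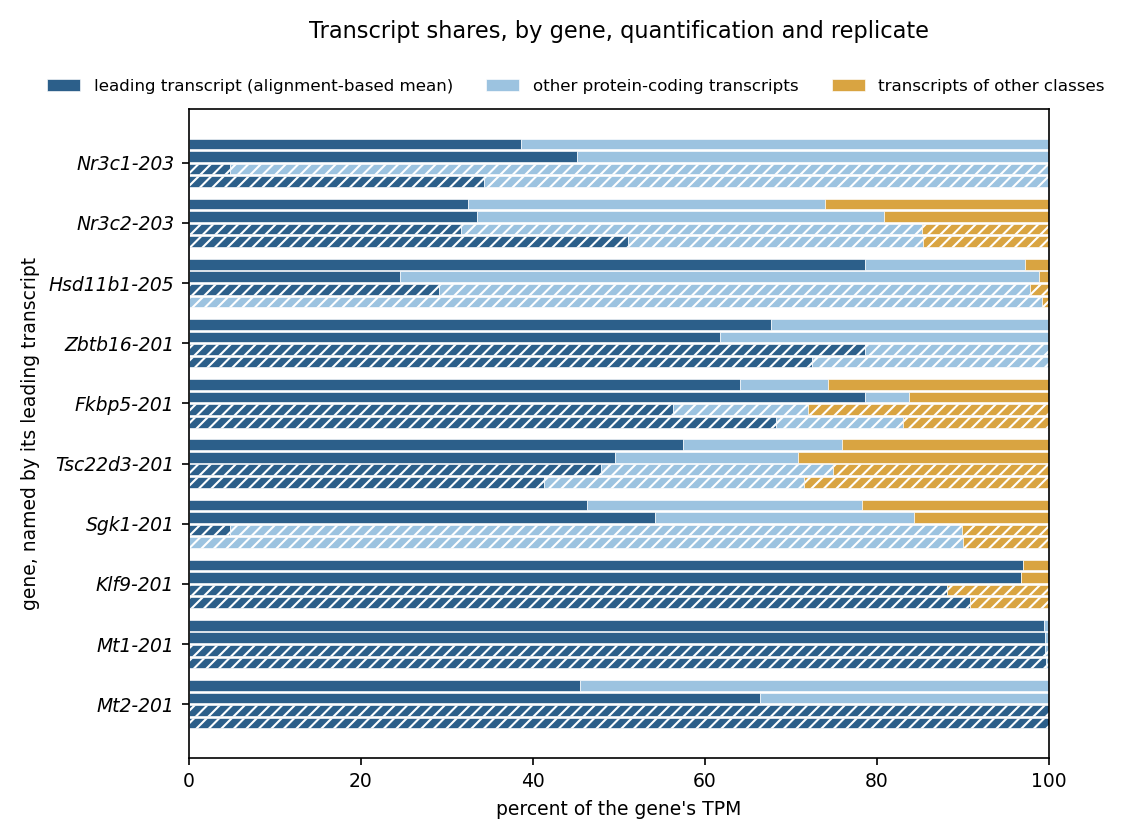
Percent of each gene's TPM held by its leading transcript (dark blue), other coding transcripts (light blue) and transcripts of other classes (ochre). The 4 bars of a gene are, from the top, alignment-based replicates 1 and 2 (plain) and read-based replicates 1 and 2 (hatched). Mt1-201 fills nearly the whole bar throughout, and Sgk1-201 fills 46.3% and 54.3% of the plain bars and 4.81% and 0% of the hatched ones.

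Other genes known to be induced by glucocorticoids were mostly higher in replicate 1 as well. Of 32 genes on this list, all of them measured, 27 had the higher value in replicate 1, and the median log2 ratio was 0.35. Pdk4, Fam107a and Map3k6 passed the ratio of 2, and none did in the other direction. The list was written with the difference of these 3 genes known, so it is not independent of the 10 genes. Pdk4, a kinase that restrains pyruvate oxidation, stood at 228.6 TPM in replicate 1 against 98.9 TPM in replicate 2. Glul, glutamine synthetase, stood at 155 and 113.6 TPM. Trim63, the muscle ubiquitin ligase MuRF1, was higher in replicate 2, at 82.6 and 89.2 TPM. Read-based levels of Fam107a, 5.74 and 3.33 TPM, and of Map3k6, 8.29 and 4.51 TPM, differed by less than a factor of 2.

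By median ratio, the machinery around the receptor stood closer between the hearts than the induced genes did. Of 15 receptor chaperone genes 11 were higher in replicate 1 and none passed a ratio of 2, with a median log2 ratio of 0.16. Hspa8 and Hsp90ab1, the constitutive chaperones that load and hold the receptor, stood at 568.7 and 406.9 TPM and at 483.8 and 394.7 TPM. Fkbp4, the immunophilin that competes with Fkbp5 for the complex, stood at 143 and 135.8 TPM. It exceeded Fkbp5 by far in both hearts. Of 12 coregulator genes, among them Ppargc1a at 50.6 and 39.3 TPM and Ncor1 at 48.5 and 44.9 TPM, 8 were higher in replicate 1 with a median of 0.03 and none past the ratio. The estrogen receptor genes were scarce, with Esr1 at 0.38 and 0.20 TPM and Esr2 at 1 and 3 counts.

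Relatives of the induced genes followed in part. Of 14 paralogs of Klf9 and Tsc22d3, 12 were higher in replicate 1 (median 0.14) and none passed a ratio of 2. Tsc22d1 stood at 183 and 156 TPM, Tsc22d4 at 111 and 122 TPM and Klf13 at 24.6 and 19.5 TPM. Of 7 measured metallothionein and zinc genes 4 were higher in replicate 1, with a median of 0.0070. Slc30a1, a zinc exporter gene driven by the same metal sensor as Mt1 and Mt2, stood at 9.84 and 9.57 TPM, a log2 ratio of 0.04. The importers Slc39a14 and Slc39a1 stood at 32.9 and 26.4 TPM and at 32.4 and 31.8 TPM, and Mt4 had no counts. Of 5 measured genes of the Sgk family and sodium transport 2 were higher in replicate 1 (median -0.0067), with the sodium pump gene Atp1b1 at 189 and 179 TPM and Nedd4l, a ligase that Sgk1 acts on, at 17.9 and 21.9 TPM. Spike-in scaling would raise every log2 ratio by 0.10, which turns the sign of this last median and of that of the steroid synthesis list.

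**Figure D4:**
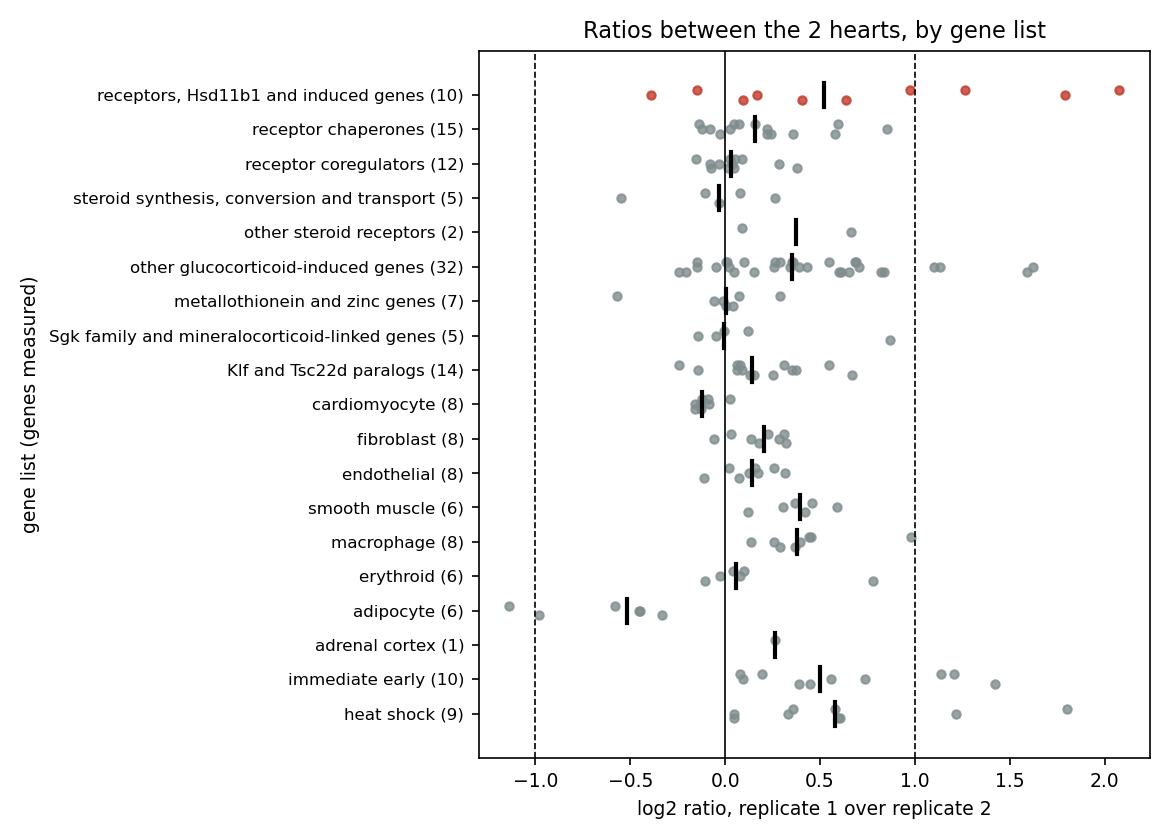
Log2 ratio of scaled counts, replicate 1 over replicate 2, of each measured gene, by list; black bars are medians, dashed lines a ratio of 2, and numbers in brackets the genes measured. The liver list, with a median of -6.87, is left out of the plot. The 10 genes (red) have a median of 0.52, the 32 other induced genes one of 0.35 and the cardiomyocyte genes one of -0.12.

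Several other lists differed along with the 10 genes, and their part in it was not tested. All 10 immediate early genes had the higher scaled count in replicate 1 (median 0.50), with Nr4a3, Fos and Atf3 past a ratio of 2. Jun was the most abundant of them at 22.4 and 16.1 TPM. Egr2, on 14 and 10 counts, was higher in replicate 2 by TPM, at 0.15 and 0.44 TPM. Of 9 heat shock genes, 3 of them also among the chaperones, 9 were higher in replicate 1 (0.58), with Hspa1a and Hspa1b past the ratio. All 8 macrophage genes (summed 88.6 and 65.0 TPM), all 6 smooth muscle genes (266 and 197.8 TPM), 7 of 8 fibroblast genes (912.7 and 755 TPM) and 7 of 8 endothelial genes (597 and 486 TPM) were higher in replicate 1. Of 8 cardiomyocyte genes 7 were higher in replicate 2, and their sum, 36834 and 38079 TPM with none at 0, was the largest of any list. Erythroid genes summed to 11301 and 10824 TPM. All 6 measured adipocyte genes were higher in replicate 2 by scaled counts (13.0 and 18.2 TPM). All 8 liver genes passed the ratio with the higher value in replicate 2, opposite to the induced genes, at sums of 2.84 and 27.4 TPM, with Serpina1a and Fgb at 0 in replicate 1. Of 6 adrenal cortex genes, 1 reached a mean count of 10, the list summed to 0.41 and 0.27 TPM, and Cyp21a1 and Akr1b7 were at 0 in both hearts. Of 647 measured entries annotated as TEC or sense intronic, classes that can hold unspliced RNA, 472 were higher in replicate 1 (median 0.35), and 30 passed the ratio of 2 in that direction against 1 in the other. Within the 10 genes such entries held few reads: 6 and 4 counts and 7 and 6 counts for the pair on the strand of Fkbp5, and 2 and 0 counts for the one in Hsd11b1. These are separate entries only, and transcripts annotated with a retained intron are counted within their genes. Of these, Sgk1-209 held 16.3% and 8.03% of Sgk1, at 3.25 and 0.68 TPM. The read-based values gave Sgk1-209 1.64% and 3.10%.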

How the data were processed

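Total RNA of 2 hearts was quantified by the authors on mm10 with GENCODE M21, per the deposited listings, from transcriptome alignments (gene and transcript tables) and from a FASTQ file (a second transcript table), called alignment-based and read-based here. The quantification tools are not stated. Expected counts were deposited as estimated reads per gene or transcript, without normalization, per the file headers. The deposited TPM values cover every entry, ERCC among them. The score columns were deposited for each TPM, a lower and an upper credibility bound of unstated level. The percent column was deposited too, as each transcript's share of its gene, per the file headers.

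The 10 genes, the 19 other lists and the rules were chosen with earlier results of these data known. Gene counts summed to 42966739 and 42720824 over 55536 entries, all matched to M21, without ERCC entries (0.518% and 0.544% of counts) and entries named by a number only. Read-based transcripts were summed to genes. Scaling factors were found from rounded counts by TMM (edgeR 4.0.16, run in R 4.3.3). Ratios used the unrounded expected counts, and their intervals the rounded ones. Ratios were taken for genes averaging 10 counts or more. Intervals of ratios are exact binomial (Clopper-Pearson) at 95% and cover counting error only, since reads are not independent molecules. With 1 group of 2 samples no test was made.

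Beside the 10 genes, names were drawn from the 3 highest by mean TPM and all genes past a ratio of 2 in each list, the 5 genes nearest Zbtb16 in ratio averaging 100 counts or more, transcripts with at least 10% of their gene, and overlapping entries with a mean count of at least 10. Some genes that this rule takes are not reported here. Cell type lists are given as sums. Hsd11b2, Mt4, Dnaja1, Hsp90aa1, Dnajb1, Egr2 and the low entries inside Fkbp5 and Hsd11b1 were named after their values were seen. On simulated counts without spread between animals (15850 genes, 200 changed, intervals not simulated), a ratio of 2 was called for 7 of 200 genes at 1.5-fold, 99 at 2-fold, 197 at 3-fold and 199 at 4-fold, and for 110 to 131 of the unchanged genes. Alternatives used DESeq2 1.42.0 size factors, total counts, spike-in totals, read-based values, TPM ratios, other folds and count filters, and omission of the intervals or of a replicate. Scripts ran in Python 3.11.15 with pandas 2.3.3, scipy 1.17.1, numpy 2.4.6 and, for figures, matplotlib 3.10.9. Promoter windows are from RefSeq, GRCm38.p6.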

Additional observations from a re-analysis of the deposited data

How the results depend on the processing

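The log2 ratios of the 10 genes kept their sign under size factors of DESeq2, total counts, spike-in totals, read-based counts and TPM ratios, and 42 of these 50 values stayed within the counting interval. Zbtb16, Fkbp5 and Mt2 passed the ratio of 2 under each of these, and Sgk1 joined them under total counts, spike-in totals and TPM ratios. All calls with credibility intervals used those of the alignment-based tables, also for read-based counts, so the read-based calls are not independent. At a fold of 1.5 in place of 2, 5 of the 10 genes passed. At a fold of 3 there were 2, without Mt2. The median log2 ratio of the 10 genes was 0.62 with spike-in totals, which shift every ratio by 0.10. Over all genes, 134 passed the ratio of 2; 335 did at a fold of 1.5, 66 at a fold of 3, 25 at a mean count of at least 100 and 508 without the credibility intervals. Higher and lower calls split 87 to 47 with TMM (47 to 46 for protein-coding genes, 30 to 1 for TEC and sense intronic entries), 24 to 42 at a fold of 3, 22 to 3 at a mean count of at least 100, 116 to 46 with spike-in totals, 124 to 48 with TPM ratios and 72 to 48 read-based. TPM rescaled to protein-coding nuclear genes was higher for each of the 10 genes, such as 72.7 for Nr3c1 and 101 for Zbtb16. The leading transcript's share moved by more than the SD between hearts for 8 of 10 genes in the read-based tables. The cause was not tested. Leaving out a replicate leaves the level of the other heart, and no ratio. No paired analysis was possible because there is a single group. Depth limits Hsd11b1 most, with 123 and 112 counts.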
